A study of Homo sapiens with 6 samples.

Results

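DNAJ proteins, also called HSP40 proteins, are co-chaperones of the HSP70 family. Genes were taken when their symbol was DNAJ, then A, B or C, then a number, and when they had at least 10 reads in at least 3 of the 6 libraries. This gave 38 of 43 gene rows with such a symbol, out of 23686 gene rows in all: 3 of subfamily A, 9 of subfamily B and 26 of subfamily C. The samples were HEK293 cells, an established human embryonic kidney line, that carried green fluorescent protein (GFP) and were collected by fluorescence-activated cell sorting. In 3 samples the GFP cells had shared a culture for 10 h with HEK293 cells carrying DAAO, which produced reactive oxygen species (ROS), at 25 µM D-alanine. DAAO commonly stands for D-amino acid oxidase, an enzyme that makes hydrogen peroxide as it consumes D-amino acids. The other 3 samples were sorted GFP-positive cells labelled as Wt controls. One treatment text is given for both groups, so whether controls received D-alanine or partner cells of another kind is not stated. The sampled cells are labelled with GFP only, and the oxidant came from their neighbours. The design asks how such neighbours change gene expression in cells next to them.

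HSP70 chaperones bind unfolded stretches of protein and release them in a cycle driven by ATP. A DNAJ protein carries a J domain that makes HSP70 hydrolyse ATP, and many also bring the client protein. Subfamilies A and B keep the domain order of the bacterial DnaJ or part of it, and subfamily C shares only the J domain with them. Members of C therefore serve HSP70 at many different places, such as the ER, mitochondria, clathrin coats, the spliceosome and the ribosome. In heat-shocked cells the transcription factor HSF1 binds repeats of GAA and TTC, called heat shock elements, and induces DNAJA1 and DNAJB1 together with HSPA1A and HSPA1B.

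The promoter stretches below are shown because they hold the letters of this element in the heat-inducible members and in DNAJB6, the member with 3 units in a row upstream of its start. The HSPA1A stretch is given for comparison as an HSP70 gene. Matches also stood in HSPA1B, 105 bases upstream of its start, and in HSPA8, 230, 225, 55 and 50 bases upstream, which are not shown. Sequences are from RefSeq on GRCh38.p14, written 5′ to 3′ on the gene's strand. Capitals mark the GAA and TTC units of each match.
DNAJB1, chr19:14518398-14518498, minus strand: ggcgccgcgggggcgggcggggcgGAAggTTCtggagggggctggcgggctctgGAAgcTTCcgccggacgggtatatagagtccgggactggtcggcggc
DNAJA1, chr9:33025051-33025110, plus strand: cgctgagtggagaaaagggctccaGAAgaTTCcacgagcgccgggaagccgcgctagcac
DNAJA1 at its start, chr9:33025263-33025292, plus strand: ggcgcgccgggcgGAActTTCcaGAAcgct
DNAJB4, chr1:78004817-78004876, plus strand: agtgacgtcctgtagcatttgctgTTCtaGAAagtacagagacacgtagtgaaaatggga
DNAJB6, chr7:157336849-157336908, plus strand: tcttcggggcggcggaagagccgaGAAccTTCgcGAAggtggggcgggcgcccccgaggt
HSPA1A, chr6:31815413-31815472, plus strand: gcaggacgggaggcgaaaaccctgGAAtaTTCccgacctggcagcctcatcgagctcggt

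The search used GAANNTTC and TTCNNGAA, each of which reads the same on both strands, in windows from 250 bases before to 50 bases after each start. The table held a window for 35 of the 38 DNAJ genes. Either motif stood in 6 of these 35 genes (17.1%): DNAJA1, DNAJB1, DNAJB4, DNAJB6, DNAJC6 and DNAJC15. The share was 13.5% over all 35116 windows. Counted per gene, as for the DNAJ genes, it was 16.2% over all 27305 genes and 14.1% over the 10467 tested genes that had a window. DNAJB1 held matches 77 and 47 bases upstream of 1 start and another 2 bases past an alternative start. A motif of 3 units, in which GAANNTTC and TTCNNGAA share a GAA or a TTC, was searched on both strands and overlaps both shorter ones. It stood in DNAJA1, 4 bases past the start, and in DNAJB6, 131 bases upstream. These were 2 of 35 DNAJ genes (5.71%), against 0.490% of all windows and 0.535% of the tested genes that had one. The ER stress element, which is CCAAT, 9 bases and CCACG, was searched on both strands. It was found in 0 of the 35, in 0.0769% of all windows and in 0.143% of the tested genes that had one. A match is a description of letters only.

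Each library held 19091085 to 36250314 reverse-strand reads assigned to genes, and 14582 genes were tested. Multimapping reads were 8.42% in co-culture library 1 and 6.48% to 7.03% in the other libraries. The median share of forward-strand reads among highly counted genes was 0.124% and 0.211% in co-culture libraries 2 and 3 and 1.57% to 1.75% in the other 4. Co-culture libraries 2 and 3 therefore stand apart, and a fit with this strand class as a batch term compares co-culture library 1 with the controls. Values of that fit are given as within-class values. Of 8 genes listed as expressed in HEK293, 7 were tested, at mean levels from 7.19 CPM (PAX2) to 1123 CPM (VIM), while PAX8 had at most 6 reads in a library. Among markers of other cell types, PTPRC, LYZ, ALB and PECAM1 had at most 5 reads in a library, and COL1A1 had 31.0 to 44.4 CPM.

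Of the 38 DNAJ genes, 5 passed an adjusted p of 0.05 in edgeR's quasi-likelihood test, 2 higher and 3 lower in co-culture. The general cytosolic co-chaperones DNAJA1 and DNAJB1 and the vesicle co-chaperone DNAJC5 fell. The clathrin co-chaperone DNAJC6 and the little-studied DNAJC22 rose. The share was 13.2%, beside 4.83% of all tested genes (2.66% higher and 2.17% lower). With total-count scaling the split was 1 higher and 5 lower, beside 310 higher and 572 lower among 882 calls over all tested genes. At an unadjusted p under 0.05 there were 13 DNAJ genes (34.2%, against 23.2% of all genes), 4 higher and 9 lower. Co-culture and control libraries were fully apart for 15 DNAJ genes (39.5%, against 29.3% of all genes), 6 higher and 9 lower. The changes were small. The median absolute log2 fold change was 0.14 for the DNAJ genes and 0.13 for all genes, and DNAJC22 was the 1 DNAJ gene beyond 0.5. The count of 5 changed whichever library was left out. It was 11 without control 1, 2 without control 3, 1 without co-culture library 1 and 1 without co-culture library 3. It was 0 without co-culture library 2, 0 without control 2 and 0 in the fit with the strand-class term, where 9, 10 and 8 DNAJ genes had an unadjusted p under 0.05. The calls over all tested genes moved as well, from 704 to 3069 without control 1, 735 without control 3, 123 without co-culture library 1 and 321 without co-culture library 3. They came to 74 without co-culture library 2, 65 without control 2 and 29 with the strand-class term, where 2169, 2450 and 1824 genes had an unadjusted p under 0.05. The direction of the 5 genes was the same in each of the 13 alternatives run.

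**Figure D1:**
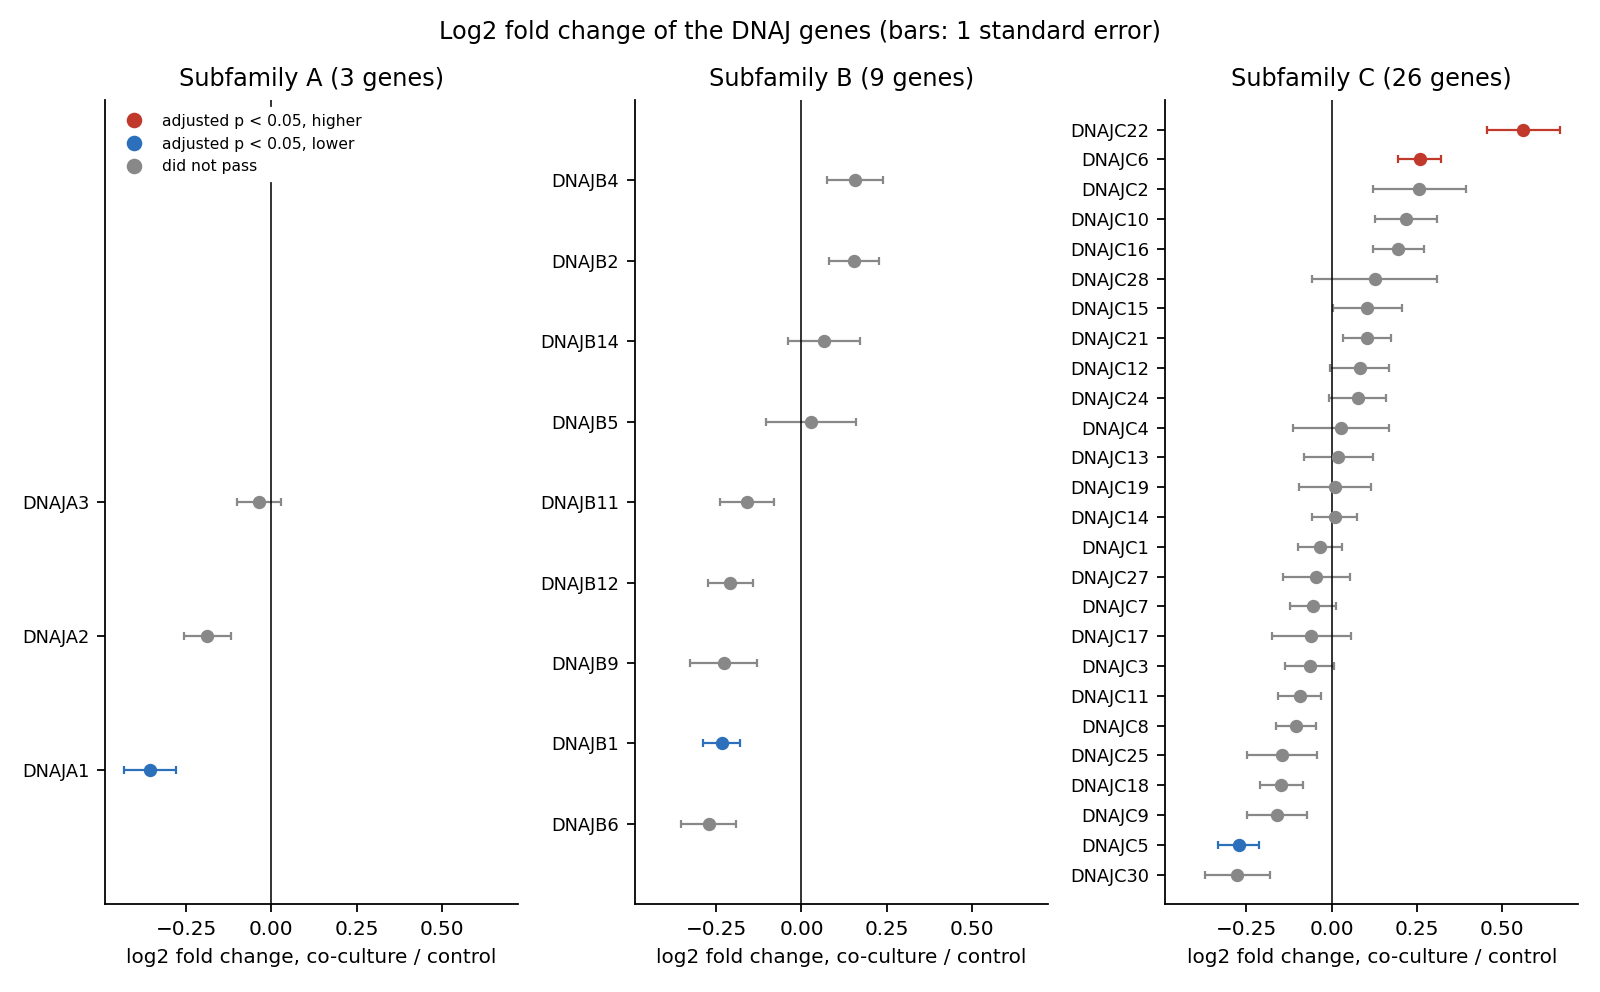
Log2 fold change of each DNAJ gene, co-culture over control, by subfamily, with bars of 1 standard error. The 3 subfamily A genes lie below 0, with DNAJA3 within 1 standard error of it. Subfamily B and C genes lie on both sides, and DNAJC22 stands farthest from 0, at 0.56.

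Subfamily A holds the closest relatives of bacterial DnaJ. Its 3 measured members had log2 fold changes below 0, with a median of -0.19, and 1 of them passed the test (33.3%, beside 4.83% of all tested genes). The sign of DNAJA3 (-0.04, SE 0.06) was not settled, as it was above 0 without control 3. DNAJA1, a farnesylated cytosolic partner of HSPA8, stood at 263, 246 and 245 CPM in co-culture libraries 1, 2 and 3. In controls 1, 2 and 3 it stood at 285, 338 and 341 CPM. The groups did not overlap, and control 1 lay nearest to the co-culture libraries. DNAJA1 fell by a log2 fold change of -0.36 (SE 0.08, adjusted p 0.0278 by edgeR), from 321 ± 31.2 to 251 ± 10.4 CPM (SD, n = 3 each).

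The call of DNAJA1 was lost without control 2 (-0.32), without co-culture library 1, 2 or 3 (-0.39, -0.34 and -0.33) and within the strand class (-0.29, edgeR adjusted p 0.356). It was also lost with the replicate number as a block (-0.35, edgeR adjusted p 0.0905). Over the 13 alternatives the adjusted p of DNAJA1 ran from 1.90e-05 to 0.356. Forward-strand reads over DNAJA1 came to 15.1, 0.760 and 1.31 CPM in co-culture libraries 1 to 3 and 16.8 to 20.7 CPM in the controls. With both strands counted together DNAJA1 kept its call. The genome also holds processed copies of DNAJA1, so its count of uniquely placed reads is uncertain.

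DNAJA2, a second general cytosolic co-chaperone, was at 141, 124.7 and 137 CPM in co-culture and at 142, 161 and 156 CPM in the controls. Its groups nearly touched, and the difference did not pass (log2 fold change -0.19, SE 0.07, adjusted p 0.134 by edgeR). Without control 1 it did (-0.24, edgeR adjusted p 0.00676). DNAJA3, the mitochondrial member also known as TID1, overlapped between groups at 85.3 ± 2.94 against 87.4 ± 5.33 CPM (log2 fold change -0.04, SE 0.06, adjusted p 0.781 by edgeR). The 4th row of the subfamily, DNAJA4, is known as heat-inducible and had 0 to 2 reads per library on its own strand. It is not among the 38.

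Subfamily B had a median log2 fold change of -0.16, with 4 genes above 0 and 5 below. Of the 9, 1 passed (11.1%, beside 4.83% of all tested genes). DNAJB1, the founding human HSP40 and the usual HSPA1A partner in refolding and in taking apart aggregates, had SDs far below its difference. It stood at 129.5, 130.5 and 132 CPM in co-culture and at 152, 156 and 154 CPM in the controls. The groups lay well apart, with little spread within either. DNAJB1 fell from 154 ± 2.03 to 131 ± 1.25 CPM (SD, n = 3 each), which is a log2 difference of -0.23 (SE 0.05, adjusted p 0.0338 by edgeR). Within the strand class the value was -0.25 (edgeR adjusted p 0.299), and with the replicate number as a block it was -0.23 (edgeR adjusted p 0.110). Among fits lacking 1 library, its call was kept in 1, that without control 1 (-0.24, edgeR adjusted p 0.00214). The other 5 gave -0.24 to -0.22 with edgeR adjusted p from 0.0514 to 0.172.

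DNAJB6, a suppressor of protein aggregation, stood at 60.1, 70.4 and 72.6 CPM in co-culture and at 77.5, 87.2 and 80.9 CPM in the controls. The groups did not overlap, but the difference missed the threshold (log2 fold change -0.27, SE 0.08, adjusted p 0.0772 by edgeR). It passed without control 1 (-0.31, edgeR adjusted p 0.0100), with total counts (-0.30, edgeR adjusted p 0.0444) and in DESeq2 (-0.27, adjusted p 0.0454). DNAJB4, the 3rd heat-inducible gene measured, had a log2 fold change above 0, at 0.16 (SE 0.08, adjusted p 0.285 by edgeR). It was at 23.8, 22.9 and 21.4 CPM in co-culture and at 19.4, 20.2 and 21.3 CPM in the controls, so its groups nearly touched. Of the heat-inducible list, 2 of 3 measured genes passed, both lower (66.7%, beside 4.83% of all tested genes), and DNAJB4 did not pass.

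**Figure D2:**
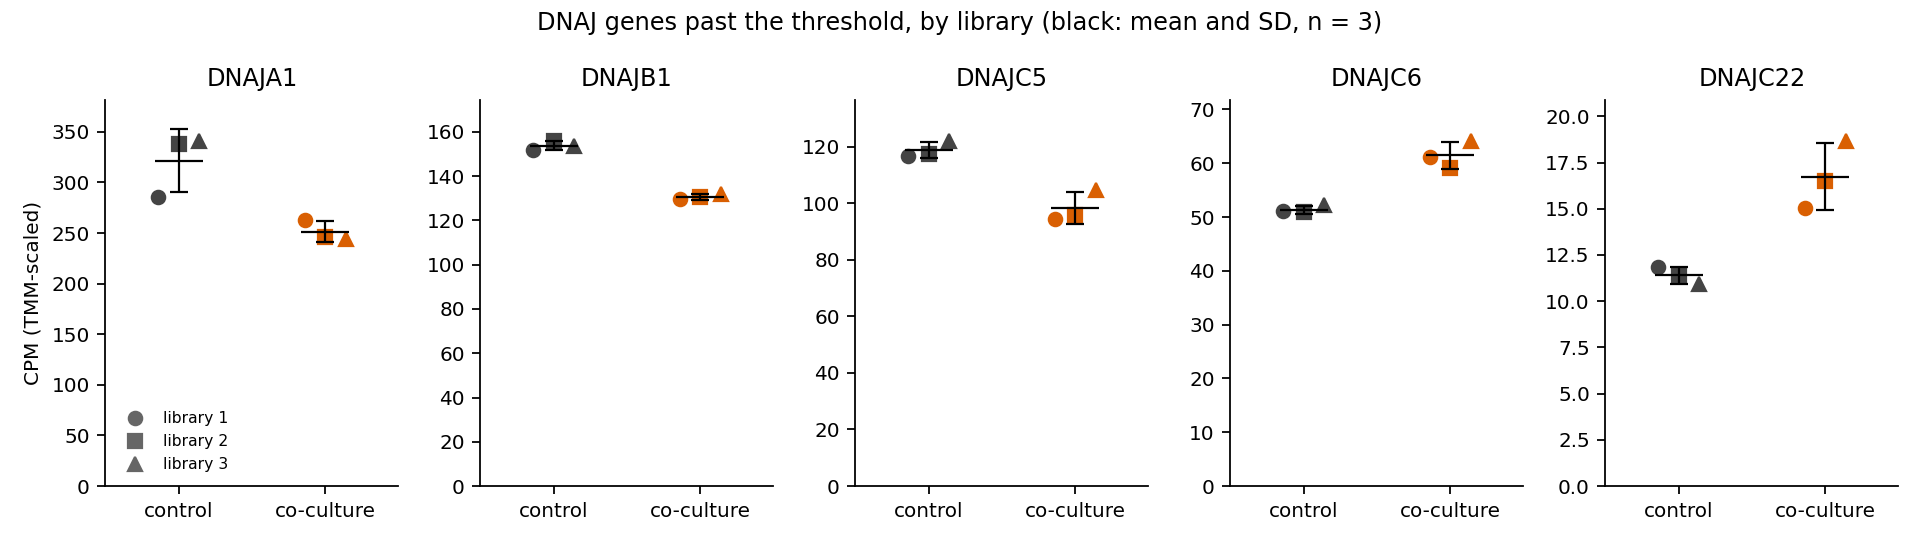
CPM of the 5 DNAJ genes past the threshold in each library, with the mean and SD of each group in black; each axis starts at 0. DNAJA1, DNAJB1 and DNAJC5 are lower in the 3 co-culture libraries than in the 3 controls, and DNAJC6 and DNAJC22 are higher.

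The cytosolic HSP70 genes that DNAJA1 and DNAJB1 serve differed among themselves. HSPA1A, whose promoter stretch is shown beside those of DNAJB1 and DNAJA1, was at 265, 281 and 307 CPM in co-culture and at 154, 171 and 170 CPM in the controls. Its log2 fold change was 0.78 (SE 0.07, adjusted p 0.000581 by edgeR), while DNAJA1 and DNAJB1 stood at -0.36 and -0.23. HSPA1B had 0.48 (SE 0.08, adjusted p 0.0126 by edgeR). HSPA1A and HSPA1B are near-identical, so the division of reads between them is uncertain; their sum was 657 ± 36.5 CPM in co-culture, beside 432 ± 40.9 CPM in the controls. HSPA8, the constitutive partner, did not pass, at 1175 ± 40.5 against 1405 ± 162 CPM (log2 fold change -0.26, SE 0.09, adjusted p 0.106 by edgeR). HSPA6, a strictly stress-induced HSP70, fell from 1.73 ± 0.474 to 0.692 ± 0.0732 CPM (log2 fold change -1.32, SE 0.30, adjusted p 0.0338 by edgeR). HSPA6 rested on 14, 16 and 22 reads in co-culture and 41, 37 and 31 in the controls, and its call was lost without control 2, without any 1 co-culture library, within the strand class (-1.28, edgeR adjusted p 0.336) and with the replicate number as a block (-1.27, edgeR adjusted p 0.0753). HSPA1A kept its call in each alternative, and HSPA1B lost it within the strand class (0.43, edgeR adjusted p 0.242), without control 2 and without co-culture library 2 or 3.

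**Figure D3:**
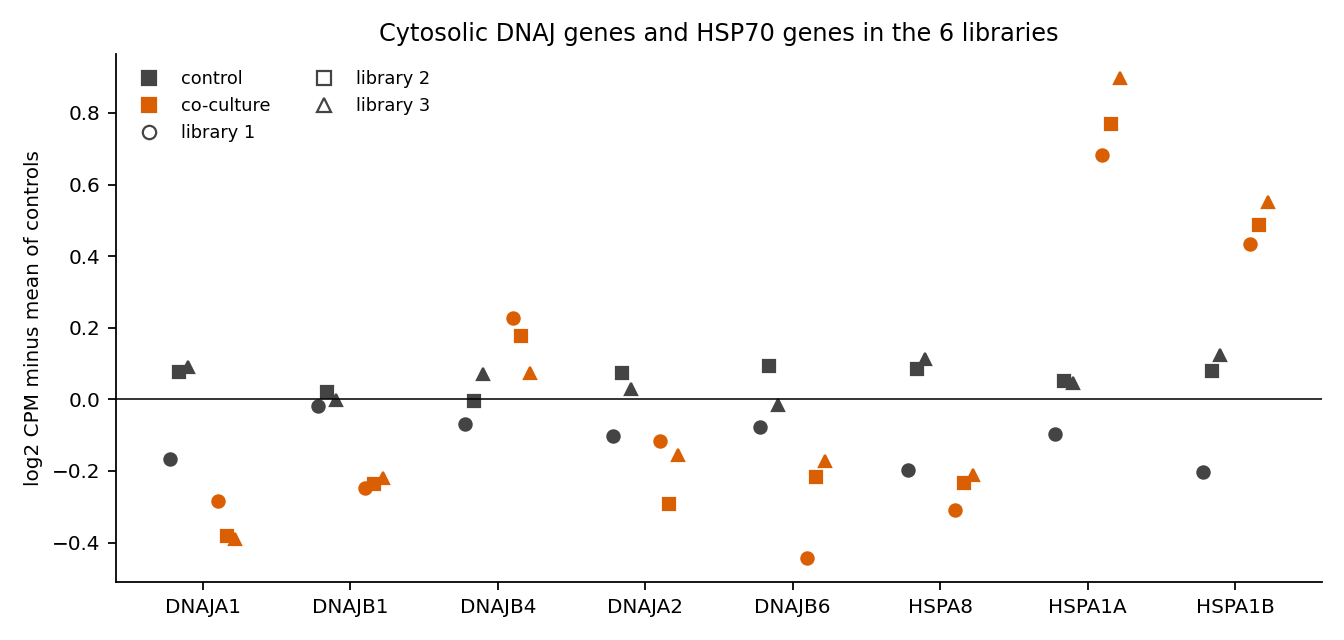
Log2 CPM of cytosolic DNAJ and HSP70 genes in each library, less the mean of the controls. Co-culture libraries lie above the controls for HSPA1A, HSPA1B and, narrowly, DNAJB4. They lie below the controls for DNAJA1, DNAJB1, DNAJA2, DNAJB6 and HSPA8. Of the genes shown, DNAJB4, DNAJA2, DNAJB6 and HSPA8 did not pass the test.

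Of 10 HSP70 genes listed as partners, 3 passed (30.0%, beside 4.83% of all tested genes), 2 higher and 1 lower. Among 13 nucleotide exchange factors, which eject ADP from HSP70 and so end the cycle that a J domain starts, 0 passed and 2 had an unadjusted p under 0.05. HSPH1 and BAG3, exchange factors that are also heat-inducible, had log2 fold changes of 0.20 and 0.10 (adjusted p 0.309 and 0.398 by edgeR). Of 6 other co-factors 0 passed and 2, STUB1 and HSF1, had an unadjusted p under 0.05, with log2 fold changes of -0.20 and -0.19 (adjusted p 0.100 and 0.159 by edgeR). Of 4 J-domain genes with other names 0 passed in edgeR's test, and 1 had an unadjusted p under 0.05. In all, 3 of 33 partner genes passed (9.09%), beside 4.83% of all tested genes. At an unadjusted p under 0.05 there were 12 (36.4%), beside 23.2% of all tested genes. By list the share was 70.0% for HSP70 genes, 15.4% for exchange factors, 33.3% for co-factors and 25.0% for J-domain genes with other names.

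The ER members bring the ER HSP70, HSPA5 (BiP), to unfolded proteins. Of 4 ER members that the unfolded protein response induces, 0 passed and 2 had an unadjusted p under 0.05, beside 23.2% of all tested genes. DNAJB9, which also holds the sensor IRE1 in check, was at 29.97, 29.4 and 24.2 CPM in co-culture and at 34.0, 34.1 and 29.5 CPM in the controls. The groups overlapped, and the log2 fold change was -0.23 (SE 0.10, adjusted p 0.193 by edgeR). DNAJB11, a soluble partner of BiP, was at 95.9 ± 2.69 against 107 ± 11.8 CPM, with control 1 inside the co-culture range. It passed without control 1 (-0.25, edgeR adjusted p 0.00217). DNAJC3, also known as P58IPK, was at 59.5 ± 2.48 against 62.1 ± 4.63 CPM. DNAJC10, a disulphide reductase, went the other way at 235 ± 14.95 against 202 ± 26.2 CPM (log2 fold change 0.22, edgeR adjusted p 0.185). Of the 6 other ER members 0 passed and 3 had an unadjusted p under 0.05, beside the same 23.2% of all tested genes. Of the 3, 1 was higher and 2 were lower in co-culture. The log2 fold changes of the 6 ran from -0.21 (DNAJB12) to 0.20 (DNAJC16).

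Subfamily C had a median log2 fold change of 0.01, beside -0.00 over all tested genes, with 14 genes above 0 and 12 below. It held 3 calls among 26 genes (11.5%, beside 4.83% of all tested genes). Of these, DNAJC5 and DNAJC6 are on a list of 3 vesicle co-chaperones, and they went in opposite directions. DNAJC5, the palmitoylated cysteine string protein that keeps SNARE proteins folded on vesicles, was at 94.3, 95.6 and 105 CPM in co-culture. In the controls it was at 117, 117 and 122 CPM. The groups did not overlap, and co-culture library 3 lay nearest to the controls. DNAJC5 fell by a log2 fold change of -0.27 (SE 0.06, adjusted p 0.0313 by edgeR), from 119 ± 2.83 to 98.2 ± 5.60 CPM (SD, n = 3 each). Its call was lost when control 2 or 3 was left out (-0.28 and -0.25), when co-culture library 1 or 2 was (-0.24 and -0.25) and within the strand class (-0.33, edgeR adjusted p 0.233). With the replicate number as a block the call of DNAJC5 was also lost (-0.27, edgeR adjusted p 0.0811).

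DNAJC6, or auxilin, calls HSPA8 to strip clathrin from newly formed vesicles. It was at 61.1, 59.1 and 64.1 CPM in co-culture and at 51.0, 50.9 and 52.2 CPM in the controls. The controls lay close together and below each co-culture library. DNAJC6 rose by a log2 fold change of 0.26 (SE 0.06, adjusted p 0.0426 by edgeR), from 51.4 ± 0.752 to 61.4 ± 2.52 CPM (SD, n = 3 each). It had the highest adjusted p of the 5 and lost its call with total counts (0.23, edgeR adjusted p 0.0545), within the strand class (0.25, edgeR adjusted p 0.344) and without any 1 library other than control 1. The call was also lost with the replicate number as a block (0.26, edgeR adjusted p 0.117). DNAJC13, which acts on endosomes, was at 58.5 ± 2.43 against 57.6 ± 8.75 CPM. GAK, the relative of auxilin found in most tissues, was at 56.1 ± 1.37 against 58.3 ± 1.68 CPM, with an edgeR adjusted p of 0.620.

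DNAJC22, the human relative of the fly endocytosis gene wurst, had the largest difference of the 38. It was at 15.1, 16.5 and 18.7 CPM in co-culture and at 11.8, 11.4 and 10.9 CPM in the controls. The lowest co-culture library stood well above the highest control. DNAJC22 rose from 11.4 ± 0.448 to 16.7 ± 1.81 CPM (SD, n = 3 each), which is a log2 difference of 0.56 (SE 0.11, adjusted p 0.0176 by edgeR). It rested on 301, 347 and 668 reads in co-culture and 234, 219 and 285 in the controls. Within the strand class the log2 fold change was 0.40 (edgeR adjusted p 0.318), and without co-culture library 2 or 3 or control 2 it was 0.58, 0.47 and 0.56 with edgeR adjusted p of 0.105, 0.0668 and 0.0941. With the replicate number as a block it was 0.56 (edgeR adjusted p 0.0689).

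**Figure D4:**
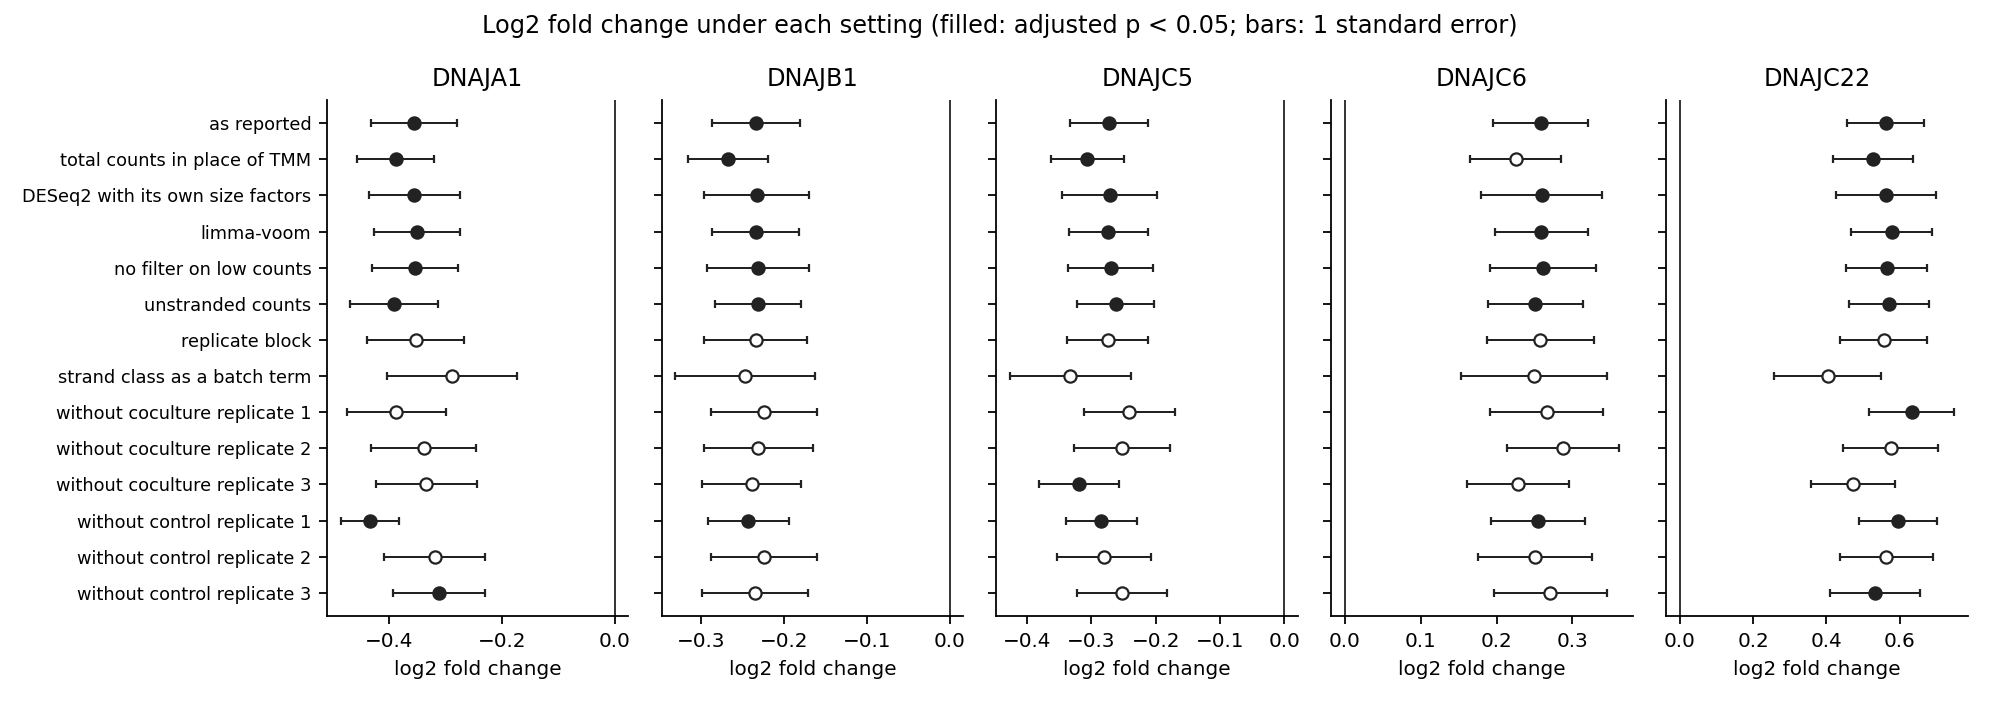
Log2 fold change of the 5 called DNAJ genes under each of the 13 alternatives and as reported, with bars of 1 standard error; filled points have an adjusted p under 0.05. Points stay on 1 side of 0 for each gene, and no point is filled in the fit with the strand-class term, with the replicate block, without co-culture replicate 2 or without control replicate 2.

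Of the 5 mitochondrial members 0 passed. At an unadjusted p under 0.05, which 23.2% of all tested genes had, there was 1 member. That was DNAJC30, at 11.1, 11.4 and 12.3 CPM in co-culture, beside 14.4, 14.1 and 13.7 CPM in the controls. Its groups did not overlap, but the difference missed the threshold (log2 fold change -0.28, SE 0.10, adjusted p 0.118 by edgeR), and it passed in 0 of the 13 alternatives. DNAJC15, which sits at the protein import motor of the inner membrane, was at 11.3 ± 0.263 against 10.5 ± 0.381 CPM. DNAJC11, DNAJC19 and DNAJA3 had log2 fold changes of -0.09, 0.01 and -0.04.

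Among 5 nuclear and ribosome-bound members, 0 passed in edgeR's test, and 0 had an unadjusted p under 0.05, beside 23.2% of all tested genes. DNAJC8, a spliceosome component, was at 177, 171 and 174 CPM in co-culture and at 179, 194 and 189 CPM in the controls; the groups did not overlap, and the log2 fold change was -0.10 (edgeR adjusted p 0.306). DNAJC2, which works at the ribosome exit, was at 51.6 and 54.2 CPM in co-culture libraries 1 and 2 and at 37.9 CPM in library 3. In the controls it was at 35.0, 40.5 and 44.0 CPM, so co-culture library 3 lay inside the control range. The log2 fold change of DNAJC2 was 0.26 (SE 0.14, adjusted p 0.295 by edgeR), and without co-culture library 3 it was 0.41 (edgeR adjusted p 0.0659). DNAJC9, a histone chaperone, was at 72.8 ± 6.32 against 81.4 ± 8.04 CPM and passed only without control 1 (-0.24, edgeR adjusted p 0.0179), of the 13 alternatives. The 33 DNAJ genes that did not pass had adjusted p from 0.0772 to 0.966 and log2 fold changes from -0.28 to 0.26.

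Per kilobase of annotated transcript, the members spanned a wide range. DNAJA1 was highest, with a mean of 120.2 CPM per kilobase over the 6 libraries, and DNAJC8 (103), DNAJC7 (92.4) and DNAJB1 (62.8) came next on the same scale. DNAJB1 was the highest of subfamily B and DNAJB5, at 2.72 CPM per kilobase, its lowest. DNAJA3 was the lowest of subfamily A, at 31.3 CPM per kilobase, and DNAJC15 the lowest of subfamily C, at 1.38. DNAJC6 and DNAJC22, which rose, lay at 9.54 and 3.19 CPM per kilobase, below DNAJC5 at 20.8. The scale depends on the annotated transcript, which for DNAJC10 is 20129 bases long and for DNAJC15 7853. By CPM alone DNAJC28 lay below DNAJC15, at a mean of 4.84 against 10.9 CPM over the 6 libraries.

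**Figure D5:**
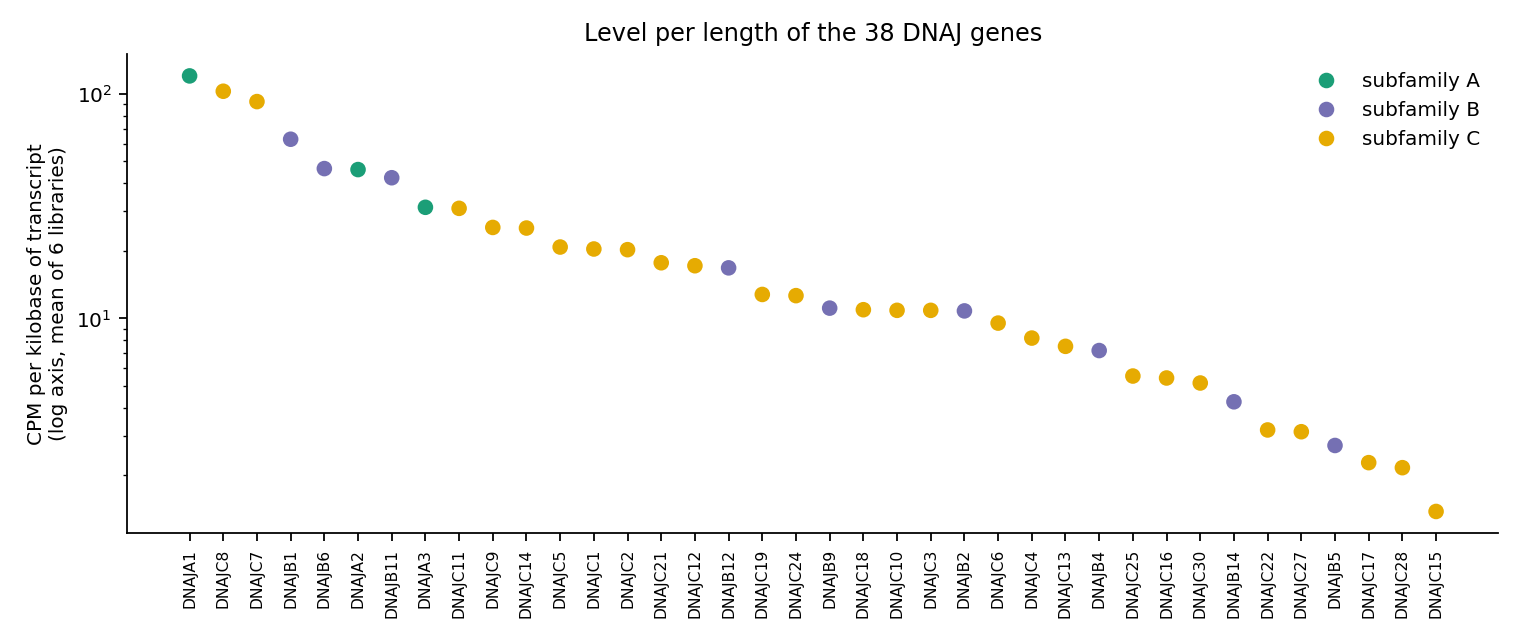
Mean level per kilobase of transcript (log axis) of the 38 DNAJ genes over the 6 libraries, coloured by subfamily. DNAJA1 is highest, at 120.2, and DNAJC15 lowest, at 1.38, with an annotated transcript of 7853 bases.

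Summed over members, the reads followed the few abundant genes. The 3 subfamily A genes came to 471 ± 16.7 CPM in co-culture, beside 562 ± 45.3 CPM in the controls, and the groups did not overlap. The 9 subfamily B genes came to 467 ± 4.70 against 521 ± 20.2 CPM, again without overlap. The 26 subfamily C genes came to 1576 ± 20.5 against 1571 ± 96.4 CPM, with control 1 lowest at 1461 CPM. These sums are descriptions and carry no test.

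The 5 rows outside the 38 had too few reads. DNAJB13, known from cilia and sperm tails, had 2 to 13 reads per library, and DNAJB7 had 0 to 2. DNAJB3 and DNAJB8 had 0 reads in each library, which allows at most 3 reads, or 0.0838 to 0.156 CPM, for counting error only.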

How the data were processed

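RNA from 6 libraries was measured as read counts per gene. The deposited count files hold raw counts in 3 columns (both strands pooled, forward, reverse) below 4 summary lines, as the file layout shows. The library kit was stranded, per the labels' protocols. STAR 2.53a, FastQC and hg18 are named, without roles, per the submitters' processing notes, and the annotation release is not given in the sources used here. Gene coordinates are therefore not given, and promoter sequences are RefSeq's, in their own build. Reads that map to several places are tallied in a summary line and not per gene, which undercounts genes with near-identical copies.

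Reverse-strand counts were tested in edgeR 4.0.16 (R 4.3.3): filterByExpr at a minimum count of 10, TMM scaling, robust quasi-likelihood F test with group as the only term, and Benjamini-Hochberg adjustment over all tested genes at 0.05. Summary lines stayed out of the library sizes. Unmapped reads were 1.22% to 1.67% of the total, multimapping reads 6.48% to 8.42%, reads in no gene 14.8% to 17.7% and ambiguous reads 0.835% to 1.01%. Standard errors were taken from F and the log2 fold change. CPM values use TMM-scaled library sizes. Level per length is CPM per kilobase of the principal transcript in GENCODE release 29. The script was tested on simulated counts.

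Groups and replicate numbers come from the sample titles. Within groups, the chi-square per degree of freedom over genes was 4.72 to 18.7, so each library was counted as 1 sample. The labels do not say that replicates were separate cultures, so p-values measure the spread between these libraries, which may be technical. Alternatives were total-count scaling, DESeq2 1.42.0, limma-voom (limma 3.58.1), no low-count filter, unstranded counts, a replicate block, a strand-class batch term and leaving out each library.

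Named with all statistics were members past the threshold and, per subfamily, the 3 largest absolute changes at a mean of at least 5 CPM. Named with values were heat-inducible and unfolded-protein-induced members, and the highest and lowest level per length in each subfamily. Partner genes were named when past the threshold. Other members and partner genes named (such as DNAJC2, DNAJC9, HSPA8, GAK, HSPH1, BAG2, BAG3, ST13, STUB1 and HSF1) were chosen after their values were seen. Values of some listed genes are not reported here. Members, lists and tests were chosen with earlier results of these data known.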

Additional observations from a re-analysis of the deposited data

How the results depend on the processing

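The 13 alternatives kept the direction of DNAJA1, DNAJB1, DNAJC5, DNAJC6 and DNAJC22. With total counts, DESeq2, limma-voom, no low-count filter or unstranded counts, 5 or 6 DNAJ genes passed; 4 of the 5 reported were among them with total counts and 5 of 5 in each of the other settings. Over all tested genes the share of higher calls was 55.1% as reported and 35.1% with total counts. The genes called were 704 as reported, 1032 in DESeq2 and 646 in limma-voom. With the replicate block, 164 genes passed, among them 0 DNAJ genes (11 at an unadjusted p under 0.05). Same-numbered libraries did not deviate together (correlations of -0.04, -0.09 and -0.09), and 0 of the 6 libraries correlated best with its own number. These values show no pairing. They cannot exclude one, because deviations from a mean of 3 libraries are tied to each other. In the fit with the strand-class term 29 genes passed, with 0 DNAJ genes and 1 partner gene, HSPA1A. Leaving out 1 library gave 65 to 3069 genes, 0 to 11 DNAJ genes and 1 to 7 partner genes; the highest of each came without control 1. With 2 libraries in a group the spread rests on few samples. The median log2 fold change of subfamily A lay between -0.24 and -0.12, of B between -0.20 and -0.11 and of C between -0.04 and 0.02. A read was worth 0.0279 to 0.0522 CPM, so depth limits HSPA6 and the rows with under 10 reads more than the other genes named.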

Other observations

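Some values among the chaperone genes rested on single libraries. ST13, the HSP70-interacting protein HIP, was at 243 CPM in co-culture library 1 and at 334 and 340 CPM in libraries 2 and 3, beside 311 to 334 CPM in the controls. BAG2, an inhibitor of STUB1, was at 39.2 CPM in control 1 and between 53.2 and 57.7 CPM in the other 5 libraries. HSPH1 was at 137 CPM in control 1 and at 189 to 204 CPM in the other 5. The libraries were singled out after their values were seen.

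The forward strand also held reads over rows that had few on their own strand. DNAJB7 had 2.60, 3.14 and 2.96 forward-strand CPM in co-culture libraries 1 to 3 and 2.07 to 2.76 in the controls, which overlap. DNAJA4 had 0.550, 0.475 and 0.419 in co-culture and 0.365 to 0.460 in the controls. Forward-strand reads made up 15.1% of all reads over DNAJC24, the highest share among the 38 DNAJ genes.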
